A study of Mus musculus with 6 samples.

Results

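VEGF and angiopoietin signalling was described in mouse RPE-choroid through 10 genes taken by name: the ligands Vegfa, Vegfb, Vegfc and Pgf, the receptors Flt1, Kdr and Nrp1, the angiopoietins Angpt1 and Angpt2, and their receptor Tek. They are 10 of the 15663 genes listed, and all 10 were among the 13454 genes with more than 50 reads in at least 2 libraries, which were tested. The libraries came from 3 healthy control mice without laser and 3 mice with subretinal fibrosis (SRF). All were male mice labelled C57BL/6 (C57BL/6J in the study's methods). They were aged 8 to 10 weeks when supplied, and the age at RNA extraction is not stated in the methods. Each eye of the SRF mice received 4 burns, every lesion was lasered again 10 days later, and RPE-choroid RNA was extracted at day 20 from that second burn. The comparison asks how RNA of the fibrotic eye differs from that of the untreated eye at this late stage.

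VEGF-A is a secreted dimer that binds the receptor tyrosine kinases FLT1 and KDR on endothelial cells, with neuropilin 1 as a co-receptor, while VEGF-B and placental growth factor (Pgf) bind FLT1. KDR carries most of the signal for endothelial growth and permeability, and FLT1 holds ligand with weak signalling. Angiopoietin 1, made by perivascular cells, activates the receptor TIE2 (Tek) and stabilises vessels, and angiopoietin 2 from endothelial cells can oppose it. In the eye, VEGF-A from the RPE maintains the fenestrated choriocapillaris, and VEGF-A is the target of the drugs used against choroidal neovascularization.

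Of the 10 genes 7 were higher in SRF and 3 lower, beside 50.3% of all genes tested that were higher. The criterion for a call was a log2 fold change of at least 0.5 in either direction together with an adjusted p under 0.05. With edgeR's quasi-likelihood test and Benjamini-Hochberg adjustment 0 of the 10 passed, beside 0.0% of all genes tested. DESeq2 also called 0 of the 10, beside 1.14% of all genes. At an unadjusted p under 0.05, 2 of the 10 stood out with either tool, beside 7.01% of all genes with edgeR and 7.23% with DESeq2. These were Angpt1 and Pgf, both higher in SRF, beside 4.16% of all genes that were higher and 2.85% that were lower at this p. With edgeR 0 of the 10 were under it without control mouse 2, without SRF mouse 2, or without control mouse 1 and SRF mouse 3. The median log2 fold change of the 10 genes was 0.08, and that of all genes tested was 0.00.

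The promoters of Vegfa, Vegfb and Flt1 are shown as examples of the 5 genes (with Pgf and Nrp1) that were lowest in control mouse 3 and in SRF mouse 3 of their groups. For Pgf and Nrp1 the window lies within the gene as GENCODE M21 draws it, and it is not printed. Each line holds the 250 bases before the first transcribed base, from the RefSeq table of GRCm38.p6, written 5′ to 3′ on the strand of the gene. The windows lie at chr17:46032378-46032627 for Vegfa, chr19:6987652-6987901 for Vegfb and chr5:147726012-147726261 for Flt1, all on the minus strand. Capitals mark ACGTG and GCGTG (the core letters of hypoxia response elements), GGGCGG (the GC box) and TATAAA, on either strand.
Vegfa: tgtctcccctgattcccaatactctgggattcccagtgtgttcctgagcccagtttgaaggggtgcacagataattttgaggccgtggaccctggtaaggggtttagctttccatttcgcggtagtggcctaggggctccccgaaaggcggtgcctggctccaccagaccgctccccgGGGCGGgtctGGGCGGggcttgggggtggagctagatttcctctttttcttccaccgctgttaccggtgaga
Vegfb: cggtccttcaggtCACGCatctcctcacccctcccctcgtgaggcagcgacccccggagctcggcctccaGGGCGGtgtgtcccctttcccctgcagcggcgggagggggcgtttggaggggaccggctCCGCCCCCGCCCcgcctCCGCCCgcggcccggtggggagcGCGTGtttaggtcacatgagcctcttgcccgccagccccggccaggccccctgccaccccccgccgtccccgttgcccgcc
Flt1: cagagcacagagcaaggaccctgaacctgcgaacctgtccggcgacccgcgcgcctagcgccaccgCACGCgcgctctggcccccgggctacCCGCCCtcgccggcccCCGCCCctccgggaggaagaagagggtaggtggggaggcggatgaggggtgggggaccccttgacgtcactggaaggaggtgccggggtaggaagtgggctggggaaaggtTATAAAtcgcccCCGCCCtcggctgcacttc
The Vegfb window was the richest of the 3 in G and C at 76.4%, against 70.4% for Flt1 and 59.2% for Vegfa, and the median of all 32851 windows was 52.4%. Vegfb held 4 GC boxes and 2 GCGTG, Flt1 3 GC boxes, 1 GCGTG and 1 TATAAA, and Vegfa 2 GC boxes. Of all windows, 32.7% held GGGCGG, 28.2% held GCGTG, 16.6% held ACGTG and 12.4% held TATAAA, so these letters are common. A window was given for 8 of the 10 genes, and not for Angpt1 and Angpt2.

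The libraries held 13667310 to 24356023 reads in genes, and the counts of the 10 genes in single libraries lay between 222 and 5848 reads. Control mouse 1 and SRF mouse 3 stood apart: their mean log2 CPM over 25 photoreceptor markers was 8.09 and 8.14, against 4.16 to 5.38 in the other 4 libraries. Values are therefore given with and without this pair where it matters. Endothelial markers were at a mean log2 CPM of 6.29 to 6.51 in control and 6.13 to 6.62 in SRF, with a median log2 fold change of 0.03 over 20 genes. RPE markers were at 9.70 to 9.87 in control and 9.47 to 9.67 in SRF, with 15 of 20 lower and 5 higher in SRF. Of all genes tested 50.3% were higher. At an unadjusted p under 0.05 with edgeR 5 of the RPE markers were lower and 0 higher, beside 2.85% and 4.16% of all genes. DESeq2 called 2 of them, beside 1.14% of all genes. In bulk tissue, fewer cells of a type and less RNA per cell cannot be told apart.

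Per transcript length (FPKM, fragments per kilobase of transcript at equal library size), the ligand Pgf and the co-receptor Nrp1 led the order. Pgf was highest at a mean of 73.8 FPKM over the 6 libraries, followed by Nrp1 at 67.5, Kdr at 42.8, Flt1 at 27.6 and Tek at 24.5. Vegfb at 20.6, Angpt1 at 19.2 and Vegfa at 14.7 came next, and Vegfc at 7.32 and Angpt2 at 7.26 were lowest. Of all genes tested 90.7% had a lower mean than Pgf, 61.5% a lower one than Vegfa and 42.0% a lower one than Angpt2. Of the 9 neighbouring pairs in this order, only Nrp1 and Kdr, Kdr and Flt1, and Vegfa and Vegfc did not overlap over the 6 libraries. Pgf and Nrp1, Flt1 and Tek, Tek and Vegfb, Vegfb and Angpt1, Angpt1 and Vegfa, and Vegfc and Angpt2 overlapped.

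**Figure D1:**
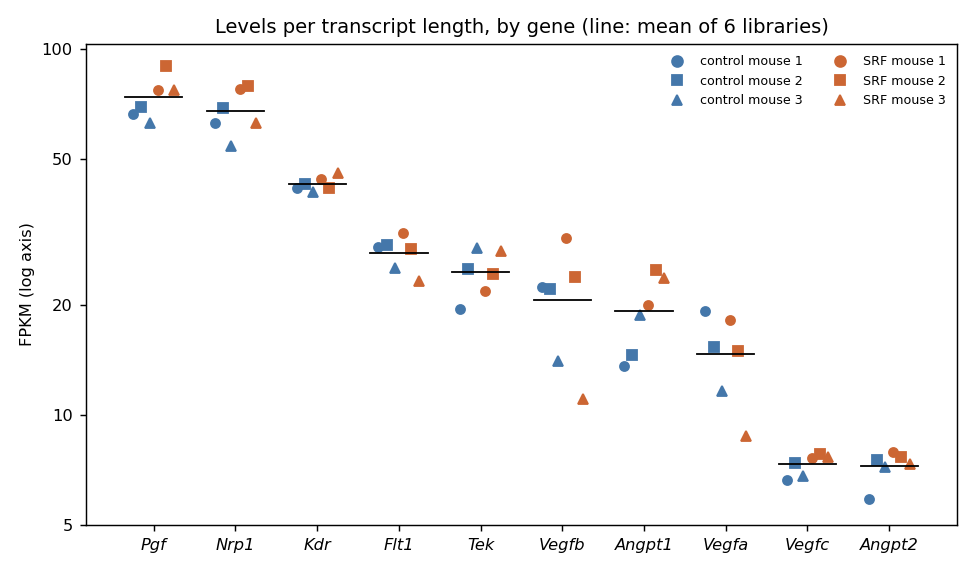
FPKM of the 10 genes on a log axis, one point for each mouse (blue control, orange SRF) and a line at the mean of the 6 libraries. Pgf and Nrp1 lie at the top with means of 73.8 and 67.5 FPKM, and Vegfc and Angpt2 at the bottom with 7.32 and 7.26.

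Among the ligands, Vegfa (chromosome 17, 46016993 to 46032369, GRCm38), the main VEGF of the RPE, read 38.3, 44.6 and 31.0 CPM (read counts scaled by TMM to a common library size) in control mice 1, 2 and 3 and 38.3, 29.9 and 19.5 in SRF mice 1, 2 and 3. SRF mouse 1 was level with control mouse 1, and the other 2 SRF mice were below every control. The log2 fold change was -0.38 (SE 0.26, 95% interval -0.99 to 0.24), and the adjusted p was 0.906 with edgeR's quasi-likelihood test. The interval therefore covers a fall of about 1 log2 unit as well as a small rise. Without control mouse 1 and SRF mouse 3, chosen for their photoreceptor RNA, the log2 fold change was -0.15 (SE 0.20).

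The unit mattered for Vegfa. On FPKM it read 19.23, 15.35 and 11.58 in control and 18.18, 14.98 and 8.77 in SRF, so both groups spanned a like range. The CPM that 1 FPKM was worth were 1.96, 2.84 and 2.64 in the controls and 2.13, 2.04 and 2.25 in SRF, a coefficient of variation of 15.1%, which only 1.85% of genes reached, against a median of 1.02%. Vegfa has 8 coding transcripts in GENCODE M21, of 513 to 3451 bases. For 8 of the other 9 genes the quotient was nearly constant, with a coefficient of variation of at most 0.597%. For Vegfc the coefficient was 3.88%.

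**Figure D2:**
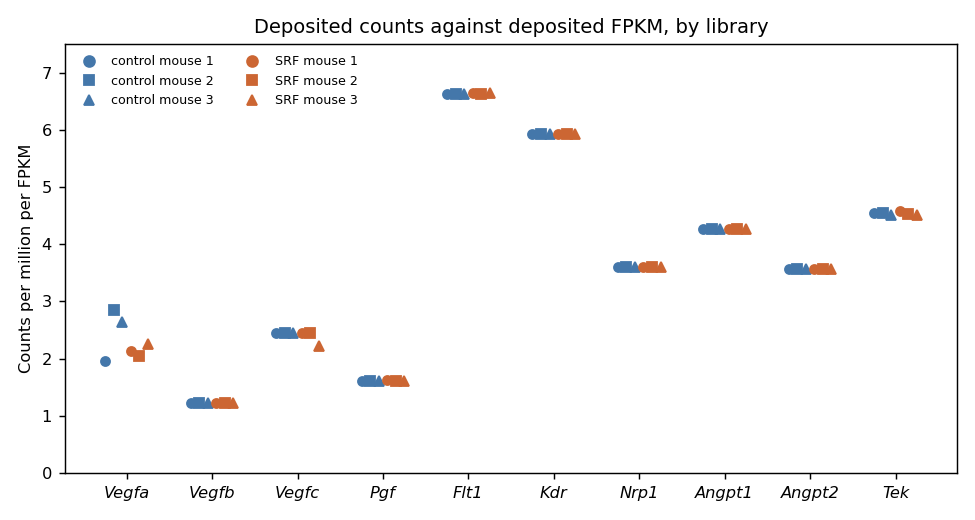
Counts scaled to library size (CPM) divided by FPKM for the 10 genes, one point for each mouse (blue control, orange SRF). Vegfa spreads from 1.96 to 2.84 between libraries, Vegfc drops from 2.45 to 2.22 in SRF mouse 3, and the other genes form flat rows.

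Vegfb (chromosome 19, 6982473 to 6987651), a ligand of FLT1, read 27.8, 27.8 and 17.3 CPM in control and 36.7, 28.4 and 13.4 CPM in SRF. The SRF values enclosed the control values, from the highest to the lowest of the 6. The log2 fold change was 0.11 (SE 0.37, 95% interval -0.77 to 0.99), the widest interval of the 10. Its transcript was also the richest in G and C at 62.6%, above 99.1% of the genes tested. After correction for the GC trend of each library the values were 29.3, 27.3 and 20.5 in control and 30.5, 24.7 and 15.0 in SRF, and the log2 fold change turned to -0.13. Without the pair rich in photoreceptor RNA it was 0.53 (SE 0.24, unadjusted p = 0.0513, adjusted p = 0.286 with edgeR's quasi-likelihood test). Over the libraries Vegfb moved with 10 skeletal muscle markers, whose mean log2 CPM was 6.86, 7.52 and 6.66 in control and 8.01, 7.73 and 6.12 in SRF. This was not particular to muscle. Endothelial markers, at 6.32, 6.51 and 6.29 in control and 6.62, 6.45 and 6.13 in SRF, were also highest in SRF mouse 1 and lowest in SRF mouse 3. The part of these cells in the Vegfb result was not tested.

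Vegfc (chromosome 8, 54077606 to 54187096), the ligand of the lymphatic receptor FLT4, read 16.5, 18.5 and 16.9 CPM in control and 18.5, 18.7 and 16.9 CPM in SRF. The groups overlapped, and the log2 fold change was 0.06 (SE 0.13). On FPKM the 3 SRF values (7.64, 7.82 and 7.68) were above the 3 control values (6.63, 7.37 and 6.79), beside 8.76% of all genes for which this held.

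Pgf (chromosome 12, 85166635 to 85177790), a ligand of FLT1 but not of KDR, read 108, 114 and 103 CPM in control and 124, 142 and 123 in SRF. Every SRF mouse was above every control, which held for 6.71% of all genes, while 6.43% had every SRF mouse below. The log2 fold change was 0.26 (SE 0.11, 95% interval 0.00 to 0.52), with an unadjusted p of 0.0497. The adjusted p was 0.710 with edgeR's quasi-likelihood test and 0.638 with DESeq2. The change is small beside the criterion of 0.5 on the log2 scale, and with GC correction it was 0.18.

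Among the receptors, Kdr (chromosome 5, 75932827 to 75978458), the main signalling receptor of VEGF-A, read 251, 260 and 244 CPM in control and 257, 242 and 270 in SRF. The groups overlapped, and the log2 fold change of 0.03 (SE 0.10) had a 95% interval of -0.22 to 0.27, which does not reach 0.5. Flt1 (chromosome 5, 147561604 to 147726011), which binds VEGF-A, VEGF-B and PGF, read 194, 197 and 170 CPM in control and 205, 183 and 153 in SRF, also with overlap. Its log2 fold change was -0.05 (SE 0.14, 95% interval -0.38 to 0.29). The interval of Flt1 stays within 0.5 on the log2 scale too.

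Nrp1 (chromosome 8, 128358604 to 128503363), the co-receptor, read 229, 254 and 199 CPM in control and 276, 278 and 223 in SRF. SRF mice 1 and 2 were above every control and SRF mouse 3 was below 2 of the 3 controls. The log2 fold change was 0.19 (SE 0.14, 95% interval -0.15 to 0.53, unadjusted p = 0.232). With Vegfa, Vegfb, Pgf and Flt1, Nrp1 was 1 of 5 genes of the 10 that were lowest in control mouse 3 among the controls and in SRF mouse 3 among the SRF mice, beside 22.4% of all genes tested. Nrp1 shares exon bases with Mir1903, and Angpt1 with Gm17473 on the other strand. How the counting treated strand is not given in the sources used here.

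Of the angiopoietins, Angpt1 (chromosome 15, 42424723 to 42676977), the TIE2 agonist, gave the largest difference of the 10. It read 58.8, 63.5 and 81.3 CPM in control and 84.1, 104 and 99.8 CPM in SRF. Every SRF mouse was above every control, though SRF mouse 1 and control mouse 3 lay close together. The log2 fold change was 0.50 (SE 0.16, 95% interval 0.12 to 0.87), which is 1.41 times the control level, with an unadjusted p of 0.0162. The adjusted p was 0.521 with edgeR's quasi-likelihood test and 0.269 with DESeq2. Without control mouse 3 the log2 fold change was 0.65 with either tool. The adjusted p was then 0.548 with edgeR's quasi-likelihood test and 0.0169 with DESeq2, which called 1.37% of all genes in that setting, added after seeing the data. Without the pair rich in photoreceptor RNA the log2 fold change was 0.37 (SE 0.16), with an adjusted p of 0.284 from edgeR's quasi-likelihood test.

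Over the 6 libraries Angpt1 had the same order as the mean of 20 macrophage and microglia markers, whose log2 CPM was 5.32, 5.68 and 5.69 in control and 6.12, 6.50 and 6.22 in SRF. Of these markers 19 were higher in SRF, with a median log2 fold change of 0.78, and 9 were called by DESeq2. Of all genes tested, 50.3% were higher in SRF and 1.14% were called by DESeq2. Markers of fibroblasts and myofibroblasts had a mean log2 CPM of 7.42, 7.53 and 7.87 in control and 7.81, 8.13 and 7.96 in SRF. Of these 12 markers 10 were higher in SRF, with a median log2 fold change of 0.49 and 0 called by DESeq2. Markers of pericytes and mural cells, the cells known to make angiopoietin 1, were at 5.72, 5.95 and 5.82 in control and 6.10, 6.16 and 5.67 in SRF. Here 10 of 14 were higher and 4 lower, with a median log2 fold change of 0.09 and 0 called by DESeq2. The part of these cells in the Angpt1 result was not tested. The Angpt1 transcript is poor in G and C at 39.3%, and with GC correction its log2 fold change was 0.61.

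Angpt2 (chromosome 8, 18690263 to 18741562), the context-dependent antagonist of TIE2, read 21.4, 27.4 and 26.0 CPM in control and 27.8, 26.7 and 25.9 CPM in SRF. The SRF values lay close together and within the control range but for SRF mouse 1. The log2 fold change was 0.11 (SE 0.13, 95% interval -0.21 to 0.42). Tek (chromosome 4, 94739289 to 94874976), which encodes TIE2, read 90.2, 117 and 131 CPM in control and 98.3, 107 and 125 in SRF, so every SRF value lay within the control range. Its log2 fold change was -0.03 (SE 0.17), and -0.27 (SE 0.13) without the pair rich in photoreceptor RNA.

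**Figure D3:**
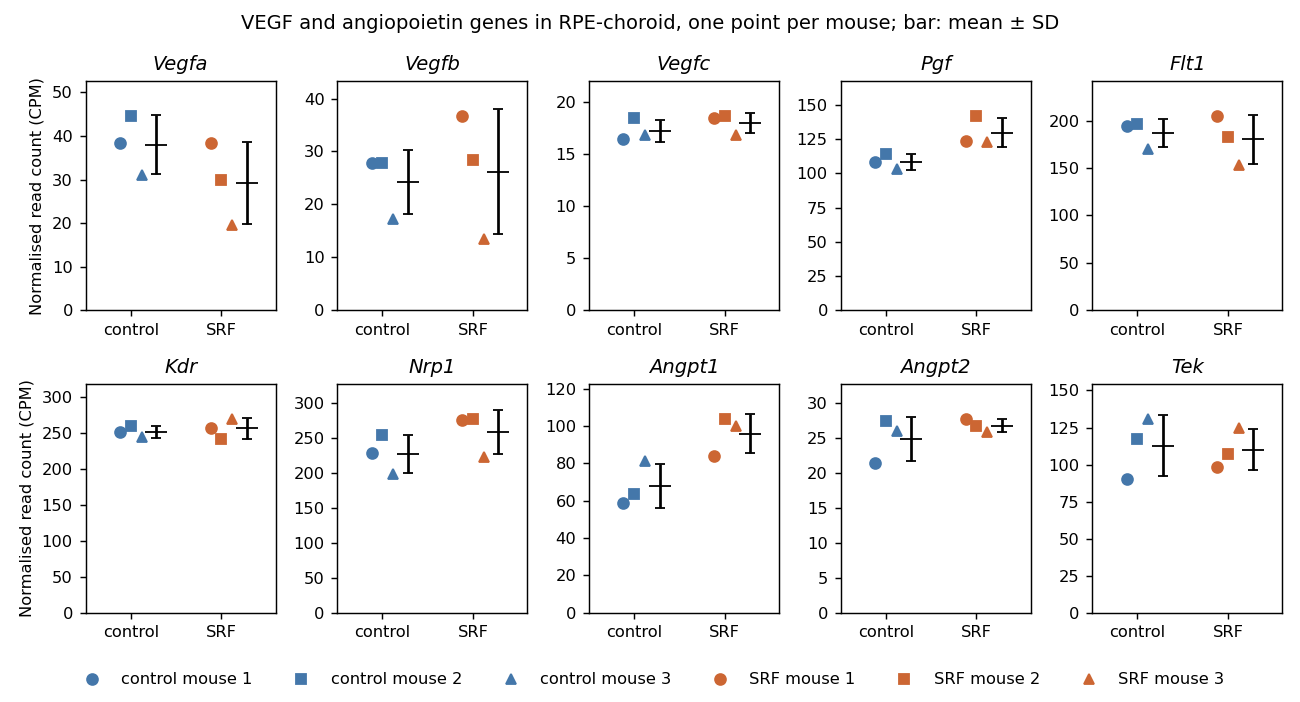
CPM of the 10 genes in control (blue) and SRF (orange) mice, one point for each mouse, with a bar for the mean ± SD of each group (n = 3) and a linear axis that starts at 0. For Pgf and Angpt1 every SRF mouse is above every control, and for the other 8 genes the groups overlap.

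**Figure D4:**
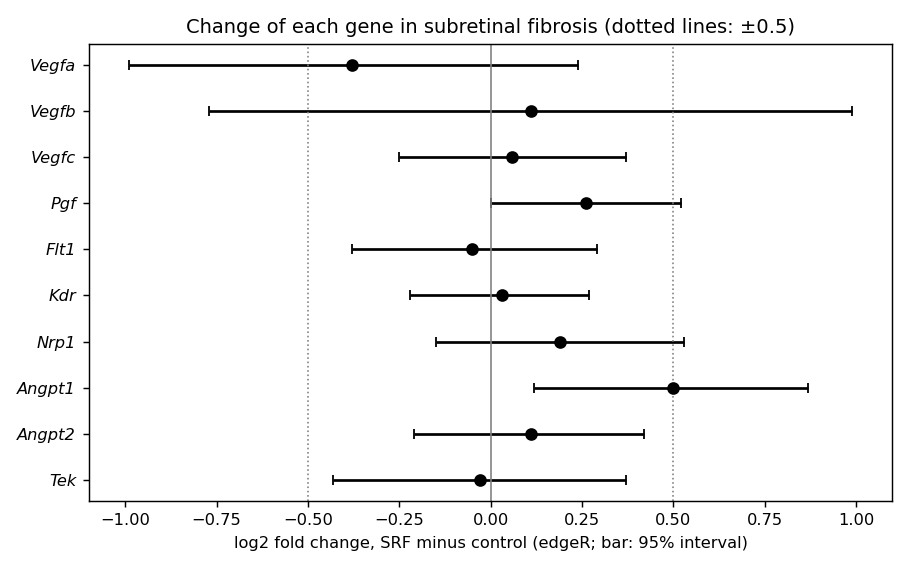
Log2 fold change (SRF minus control) of the 10 genes with its 95% interval from edgeR's quasi-likelihood fit, and dotted lines at the criterion of 0.5 in either direction. The intervals of Vegfa and Vegfb are widest, and those of Kdr, Vegfc, Flt1, Angpt2 and Tek stay within 0.5.

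The balance between partners was set side by side as ratios within each mouse, with an exact permutation test (two-sided) for each of 6 ratios. With 3 mice against 3 the smallest p this allows is 0.1. Angpt2 to Angpt1, often read as a balance of vessel destabilisation and stability, was 0.363, 0.431 and 0.320 in control and 0.331, 0.258 and 0.260 in SRF (CPM ratios). The log2 difference was -0.39 (exact p = 0.2, adjusted over the 6 ratios 0.6), and SRF mouse 1 lay within the control range. Pgf to Vegfa was 2.81, 2.55 and 3.31 in control and 3.23, 4.74 and 6.30 in SRF, a log2 difference of 0.67 (exact p = 0.2, adjusted 0.6), with SRF mouse 1 again within the control range. On FPKM this log2 difference was 0.47 (exact p = 0.3). Flt1 to Kdr differed by -0.08 (exact p = 0.8). Relative to the mean of 20 endothelial markers Kdr differed by -0.00 (exact p = 1.0) and Tek by -0.05 (exact p = 0.9). Relative to the RPE markers Vegfa differed by -0.19 on CPM (exact p = 0.6) and by -0.01 on FPKM (exact p = 1.0). The groups overlapped in all 6 ratios.

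Of the remaining VEGF ligands and receptors Nrp2, Flt4 and Vegfd, the log2 fold changes were 0.09, -0.01 and 0.02, and 0 of 3 passed. Of 6 further genes of the angiopoietin axis 3 were higher and 3 lower, with 0 called. Svep1, an extracellular matrix protein, gave 0.70 (unadjusted p = 0.0355, adjusted p = 0.645 with edgeR's quasi-likelihood test), and Ptprb, the phosphatase that silences TIE2, gave -0.16. Angptl4, a secreted regulator of lipase, read 45.9, 50.5 and 43.1 CPM in control and 54.4, 12.0 and 27.6 in SRF. SRF mice 2 and 3 were below every control and SRF mouse 1 above them.

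Pathway genes around the 10 were read from 9 lists, 135 of whose genes were tested. The lists hold genes that the study called on these same counts, so they are no independent evidence. With edgeR's quasi-likelihood test 0 of 135 were called, beside 0.0% of all genes tested. At an unadjusted p under 0.05 there were 20, or 14.8%, with 7 higher and 13 lower. Of all genes tested 7.01% were under it, 4.16% higher and 2.85% lower. DESeq2 called 8 of the 135, beside 1.14% of all genes. Whatever the p, 50.3% of all genes were higher in SRF. These shares also stand beside the counts of each list below. Of the 37 signal transduction genes 27 were higher and 10 lower, with 0 called. Akt1, a kinase downstream of both receptor families, gave 0.41 (adjusted p = 0.422 with edgeR's quasi-likelihood test). It read 44.7, 43.5 and 45.2 CPM in control and 59.9, 63.8 and 53.4 CPM in SRF. Every SRF mouse was above every control, which held for 6.71% of all genes tested. Ppp3ca, a catalytic subunit of calcineurin, gave 0.25 (SE 0.12).

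Of the 20 VEGF co-factors and modulators 3 were called by DESeq2. Thbs1, thrombospondin 1, an inhibitor of angiogenesis, read 275, 400 and 609 CPM in control and 685, 888 and 975 in SRF, with a log2 fold change of 0.99 (DESeq2 adjusted p = 0.0479). Itgav, the integrin αv chain, read 289, 294 and 289 in control and 214, 196 and 179 in SRF, with a log2 fold change of -0.57 (DESeq2 adjusted p = 0.000333). Spry2, an inhibitor of growth factor signalling, read 106, 159 and 135 in control and 72.6, 69.3 and 74.7 in SRF, with -0.88 (DESeq2 adjusted p = 0.000463). In all 3 genes the groups did not overlap on CPM, beside 13.1% of all genes tested. On FPKM the groups of Itgav overlapped, at 221.05, 240.62 and 184.2 in control and 205.92, 168.29 and 104.07 in SRF.

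Of the 16 VEGF-responsive endothelial and tip cell genes 7 were higher and 9 lower. Aplnr, the apelin receptor, read 4.54, 5.53 and 7.34 CPM in control and 17.8, 25.2 and 14.4 in SRF, with a log2 fold change of 1.71 (DESeq2 adjusted p = 9.3e-05). F3, tissue factor, gave -0.59 (DESeq2 adjusted p = 0.00347). Unc5b, a netrin receptor, gave 1.06, with a DESeq2 adjusted p of 0.0561. The 3 classical tip cell genes Dll4, Apln and Esm1 overlapped between the groups.

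All 10 immediate early genes known to be induced by VEGF were lower in SRF, with a median log2 fold change of -0.91, and 3 were called by DESeq2. Nr4a1, a nuclear receptor, read 78.8, 364 and 290 CPM in control and 27.8, 23.4 and 48.8 in SRF (DESeq2 adjusted p = 0.00413). Egr3, a transcription factor, read 1.79, 8.95 and 3.96 in control and 0.757, 0.780 and 1.23 in SRF (DESeq2 adjusted p = 0.0344). The Egr3 counts were 24, 165 and 95 reads in control and 14, 14 and 22 in SRF. Egr3 thus passed the count filter only through the controls, and its SRF values rest on few reads. Dusp6, an ERK phosphatase, read 242, 320 and 333 in control and 196, 181 and 151 in SRF (DESeq2 adjusted p = 0.00448). In these 3 genes control mouse 1 was the lowest of the controls, and every SRF mouse was below it. Every SRF mouse was below every control in 6.43% of all genes tested. These genes respond to many other stimuli.

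Of the 8 hypoxia sensing genes 1 was higher and 7 lower with a median of -0.05, and of the 19 hypoxia-inducible genes 6 were higher and 13 lower with a median of -0.02, with 0 called by either tool. Egln3, a hypoxia-inducible prolyl hydroxylase, gave -0.22, Arnt, the partner of the hypoxia-inducible factors, -0.11, and Vhl, which marks them for degradation, -0.09. Slc2a1, a glucose transporter, gave -0.33 and Aldoa, a glycolytic enzyme, -0.21, and Higd1a, a mitochondrial protein, -0.19. Of the 16 other angiogenic growth factors 10 were higher and 6 lower with 0 called, among them Tgfb1 at 0.53, Fgf2 at 0.39 and Met at -0.27.

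**Figure D5:**
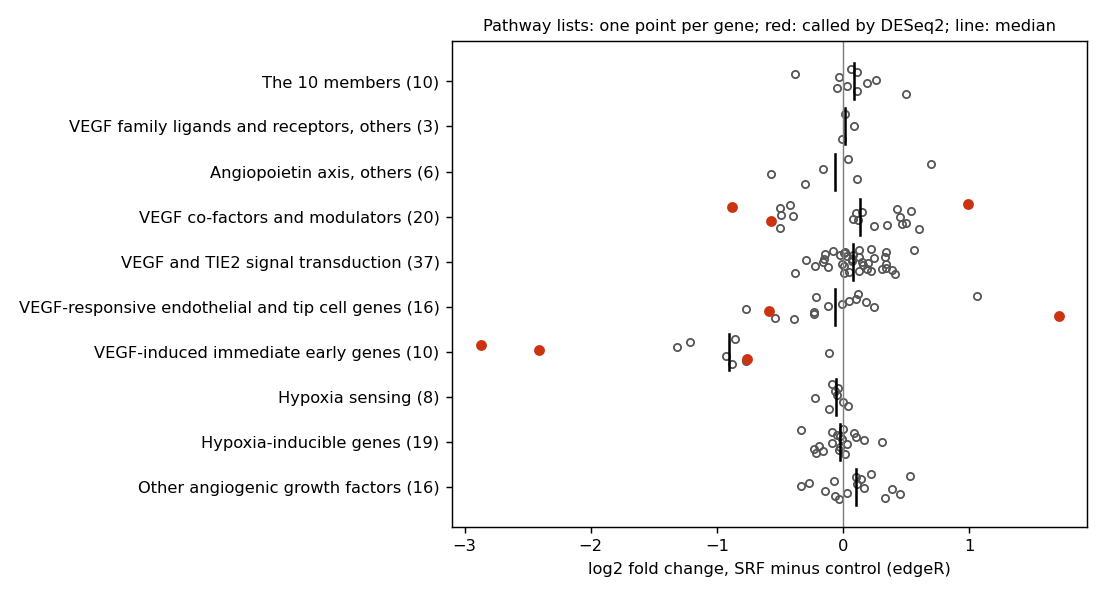
Log2 fold change (SRF minus control) of the 10 genes and of the 9 pathway lists, one point for each gene, the number tested in brackets, a line at the median, and red points for the 8 genes called by DESeq2. The 10 immediate early genes lie below 0, and the other lists scatter about it.

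Without control mouse 1 and SRF mouse 3 edgeR still called 0 of the 10 genes, while it called 153 of all genes, or 1.16% of those tested. The smallest adjusted p among the 10 was that of Angpt1, at 0.284 with edgeR's quasi-likelihood test. Of the 133 pathway genes then tested 10 were called, among them 6 immediate early genes, all lower in SRF (Nr4a1, Nr4a2, Egr1, Egr3, Dusp1 and Dusp6). Egr3 again passed the count filter only through the controls. The endothelial and tip cell list went both ways. It gave Unc5b at 1.34 (adjusted p = 0.0301 with the same test), Aplnr at 1.73 and Adamts1 at -0.88. Spry2 was also called, at -1.05.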

How the data were processed

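Libraries of RPE-choroid RNA from 3 control and 3 SRF mice were analysed. Per the study's methods, the authors filtered reads with FASTP 0.18.0 and counted reads per gene with StringTie; aligner, build and strandedness are not given in the sources used here. The deposited files hold raw counts and the authors' FPKM for 15663 genes, each with at least 1 count in every library, and 15659 identifiers matched GENCODE M21 (GRCm38).

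Counts were tested with edgeR 4.0.16 (TMM, quasi-likelihood) after a filter of more than 50 counts in at least 2 libraries, with Benjamini-Hochberg adjustment over all 13454 genes. CPM values are TMM-normalised. SE is the log2 fold change divided by the root of F, and 95% intervals use it. The alternatives were DESeq2 1.42.0, limma 3.58.1 (voom, and log2(FPKM + 0.1) and (FPKM + 1)), other normalisations and filters, a replicate block, a photoreceptor covariate and left-out libraries. GC correction, DESeq2 with the block and DESeq2 with left-out libraries were added after seeing the data. Scripts were tested on simulated data. The labels only number the replicates of each group, and the study's methods give 3 mice in each. The p-values set the group difference against the spread between these libraries.

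The 10 genes and the lists were chosen with earlier results of these data known. The text names all 10 genes, every listed gene called by edgeR or DESeq2 and, in lists without one, the 3 genes with the smallest unadjusted p. Likeness names the 3 nearest genes to Vegfa, Kdr and Tek. Unc5b, Adamts1, Dll4, Apln, Esm1, Nr4a2, Egr1 and Dusp1 were named after their values were seen. No rule set which marker lists are named beside a gene. A listed gene that the rule names is not reported here.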

Additional observations from a re-analysis of the deposited data

How the results depend on the processing

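No alternative called 1 of the 10 genes except DESeq2 without control mouse 3 (1 gene, Angpt1). Signs held under all 26 alternatives for Vegfa (-0.62 to -0.15), Pgf (0.18 to 0.31), Nrp1 (0.10 to 0.29), Angpt1 (0.37 to 0.65), Vegfc and Angpt2. They turned where the change was small. Vegfb turned with the photoreceptor covariate (-0.03) and GC correction (-0.13), and ranged from -0.22 to 0.43 with 1 library left out (DESeq2 without control 3: -0.09). Flt1 turned without composition normalisation (0.00) and without control 1 and SRF 3 (0.08; -0.15 to 0.06 with 1 library left out, and 0.05 with DESeq2 without SRF 3). Kdr turned without that pair (-0.02; left out -0.00 to 0.07, and -0.02 with DESeq2). Tek turned on FPKM (0.03 with either pseudocount) and without composition normalisation (0.02; left out -0.16 to 0.09, and 0.09 and 0.04 with DESeq2 without control 3 and without SRF 1).

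Without control 1 and SRF 3, the ratio differences of Flt1 to Kdr (0.10; -0.18 to 0.07 with 1 library left out) and Vegfa to RPE markers (0.08; -0.36 to 0.03) turned. Kdr to endothelial markers turned on FPKM (0.01) and ranged from -0.18 to 0.11 with 1 library left out, and Tek to endothelial markers from -0.28 to 0.14.

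Pathway genes called were 0 with edgeR, 8 with DESeq2 and 10 without control 1 and SRF 3 (0 with 1 library left out in edgeR). All genes called were 0 with edgeR (943 at an unadjusted p under 0.05), 1 with voom, without the legacy option, without composition normalisation, without the filter, with filterByExpr or with the photoreceptor covariate, 2 on FPKM, 153 with DESeq2 and 153 without control 1 and SRF 3, and 0 to 5 with 1 library left out in edgeR. Leaving out control 1, 2 or 3 or SRF 1, 2 or 3, DESeq2 called 246, 90, 182, 151, 67 and 343 genes in all, and 12, 4, 6, 5, 3 and 15 pathway genes. The cause was not tested.

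Same-numbered mice deviated together with correlations of -0.483, 0.473 and -0.307. With 3 values of mixed sign, these cannot settle whether replicate numbers pair the samples. A replicate block called 0 of the 10 with edgeR, and with DESeq2 201 genes in all and 11 pathway genes. Precision was lowest for Vegfa and Vegfb (SE 0.26 and 0.37).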

Other observations

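By the likeness of standardised CPM profiles over the 6 libraries (root mean square difference, smaller being more alike), the genes nearest to Vegfa were Etfb (0.101), Mrps6 (0.108) and Dapl1 (0.111). Those nearest to Kdr were Med13 (0.143), Prpsap1 (0.230) and Cd59a (0.268), and those nearest to Tek were Adgrg2 (0.111), Glb1l (0.126) and Derl1 (0.154). With 6 libraries and 13454 genes, such neighbours describe these libraries only.

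Lymphatic endothelial markers, which bear on the Vegfc receptor FLT4, were lower in SRF in 6 of 6 genes, though Flt4 itself was at -0.01. The median log2 fold change was -0.24, with 0 called by edgeR or DESeq2. Of all genes tested 50.3% were higher. The mean log2 CPM of these markers was 4.48, 4.35 and 4.57 in control and 3.97, 4.27 and 4.6 in SRF. The groups overlapped, and SRF mouse 3 was the highest of the 6.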
